A study of Mus musculus with 19 samples.

Results

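The genes described here encode proteins of the presynaptic terminal that store, dock, fuse and recover synaptic vesicles. The 40 genes were taken from a list of gene symbols, and each was represented by the probe set with the highest mean over all 19 arrays. All 40 were measured, among 18193 genes in the whole data set. By role they comprise 6 SNAREs and proteins that recycle them, 9 synaptotagmins and other calcium sensors, 2 complexins, 7 proteins of the vesicle membrane, 6 proteins of the vesicle surface, 6 proteins of the active zone and priming, and 4 proteins of vesicle endocytosis.

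At a nerve terminal, vesicles filled with transmitter are held near the release site by active zone scaffolds and are primed for fusion. Synaptobrevin on the vesicle pairs with syntaxin and SNAP-25 on the plasma membrane, and this SNARE complex pulls the membranes together when a synaptotagmin binds calcium. NSF and its SNAP adaptors then take the complex apart, and dynamin, amphiphysin and synaptojanin act in the recovery of the membrane. In the cortex, projection neurons extend their axons before birth, and synapses are formed in large numbers during the first postnatal weeks.

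The measurements come from 19 Affymetrix mouse expression arrays, each hybridised with RNA of projection neurons from the cerebral cortex of C57BL/6 mice. Callosal projection neurons (CPN), which connect the hemispheres, and corticospinal motor neurons (CSMN), which send axons to the spinal cord, were sorted before birth on embryonic day 18 (E18) and after birth on days 3, 6 and 14 (P3, P6, P14), and corticotectal projection neurons (CTPN), which reach the midbrain tectum, at P14 alone. Per the labels, green fluorescent microspheres were placed in axonal fields so that they travelled back to the cell bodies, and the marked cells were sorted by fluorescence into a preservative; no group carried a transgene or a drug. There were 3 arrays of CSMN at P3 and 2 of every other group, and the series' design text describes every replicate as a separate biological collection. CTPN came from visual cortex and the other types from sensorimotor cortex, per the labels, so in each comparison with CTPN the neuron type and the cortical area cannot be told apart. Values are on a log2 scale, on which a difference of 1 is a 2-fold difference, and a difference is given ± the standard error (SE) of a single limma model over all arrays. A gene was called when its p, adjusted over all genes by the Benjamini-Hochberg method, was under 0.05, and the verbs rose and fell are kept for such calls.

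Array medians lay between 6.42 and 6.62. The list of 6 CSMN markers was higher in CSMN than in CPN over the 4 stages for 6 of 6 genes, and all 5 measured CPN markers were lower there. Both CPN arrays at E18 stood apart: the mean of 11 cell cycle and progenitor markers was 10.86 to 10.96 there and 6.23 to 6.37 in CSMN at E18, and that of 8 astrocyte markers was 9.48 to 9.67 against 6.81 to 6.88. Of those markers, 10 of 11 and 5 of 8 were called lower in CSMN than CPN at E18. Array 2 of CSMN at P14 had the largest gap between the 3′ and 5′ probe sets of Gapdh, 3.08 against 1.39 to 2.78 on the other arrays, and array 1 of that group was higher for 36 of the 40 release genes, by a median of 0.74 against 0.13 over all genes. The part of these 3 arrays in the results below was not tested beyond the values given with and without them. In sorted bulk RNA, fewer cells of a type and less RNA per cell cannot be told apart.

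Most of the release genes rose between E18 and P14 in both neuron types. Since the 40 genes were chosen with earlier results of these data known, their shares beside those of all genes describe the list and are not a test. In CPN 33 of 40 were called higher, where 10.2% of all genes were, and 0 of 40 lower, where 8.98% of all genes were. In CSMN 26 of 40 were called higher, against 9.27% of all genes, and 0 lower, against 5.85%. The median difference over the 40 genes was 1.81 in CPN and 1.26 in CSMN, while the median over all genes was 0.03 and 0.00. Every P14 array lay above every E18 array for 38 of the 40 genes in CPN (32.1% of all genes) and for 30 in CSMN (17.7%). The same 25 genes were called in both types. With the earlier stage set to P3, so that the E18 means do not enter, 19 genes were called higher at P14 in CPN (4.68% of all genes) and 16 in CSMN (4.45%). Without array 2 of CSMN at P14, 34 genes were called higher in CSMN, where 16.6% of all genes were. Array weights and a fit of only the CSMN groups compared each cut the CSMN count to 8, against 1.21% and 1.52% of all genes.

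**Figure D1:**
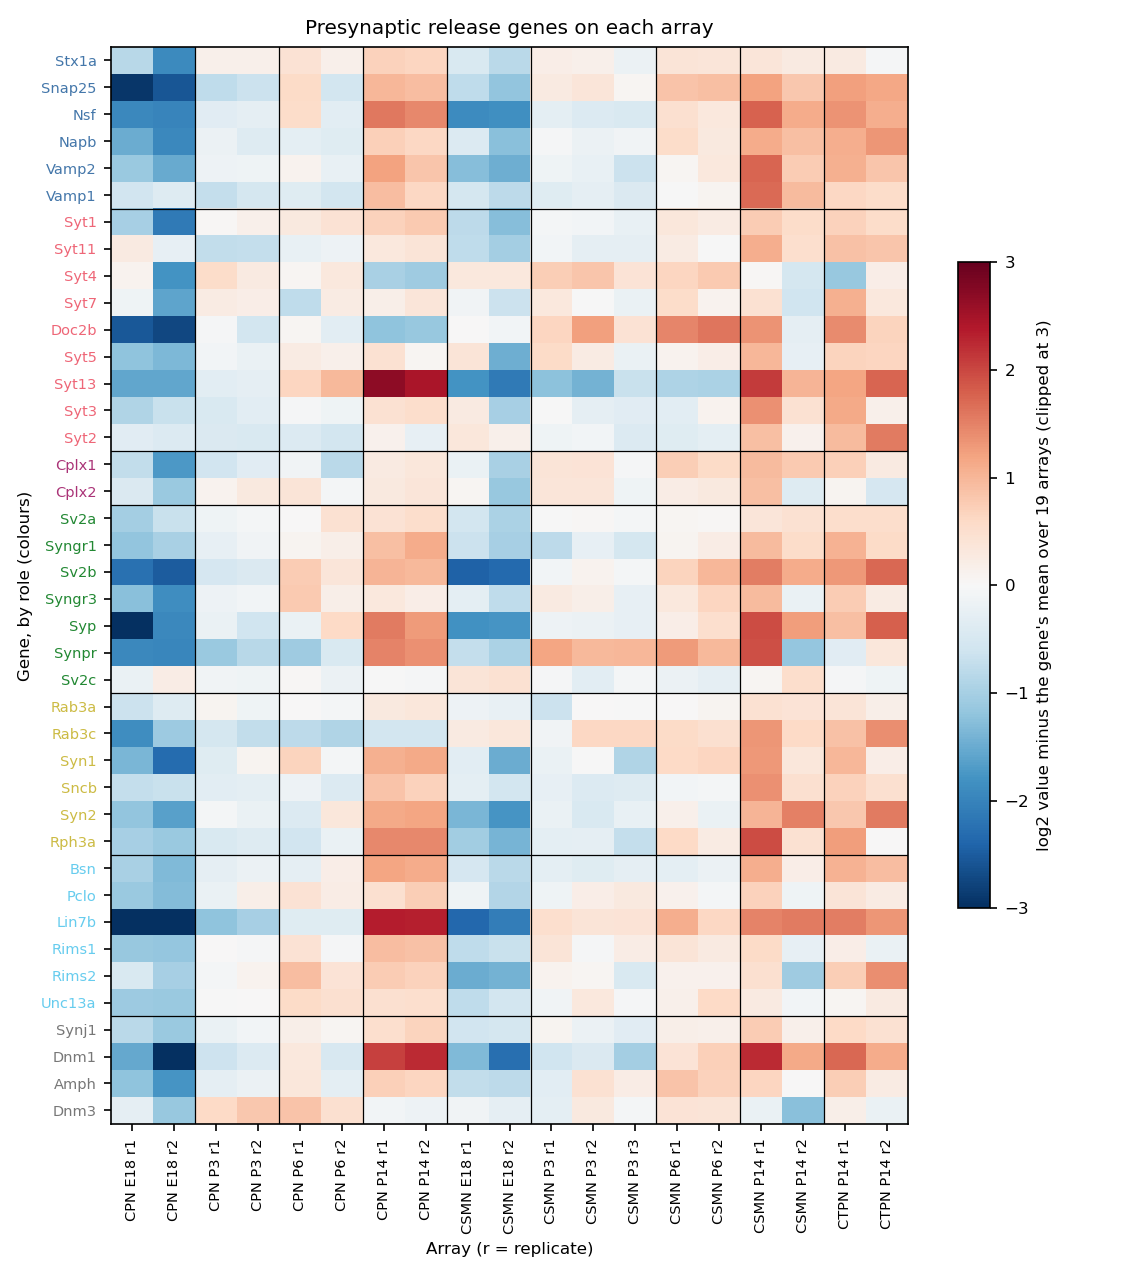
Each row is a release gene, grouped and coloured by role, and each column an array; colour gives the log2 value minus the gene's mean over the 19 arrays, clipped at 3. The E18 columns are blue for most genes and the P14 columns red, and array 2 of CSMN at P14 is paler than array 1.

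Since most of these genes moved together, the 250 bases before the annotated start were read for the 31 members that the RefSeq table holds (build GRCm38.p6). These windows had a median GC content of 60.0%, and the median over all 32851 promoter windows was 52.4%. Both strands were searched for 6 kinds of motif. The GC box GGGGCGGGG was found in 7 of the 42 windows of members (16.7%; Rab3a, Rims1, Sncb, Sv2a, Syngr1, Syp, Unc13a) and in 10.4% of all windows. The cAMP response element TGACGTCA was found in Syn1 and in 1.55% of all windows, the E-box CACGTG in Nsf and Sv2b and in 6.02%, the palindromic NRF1 site in Bsn and in 0.782%, and TATAAA in Sv2b and in 12.4%. For the core of RE1, the element bound by the repressor REST, the form first searched, 15 letters long, matched 0 members and 0.0335% of all windows. After the Syn1 window had been read, 1 more letter of that form was allowed to be any base. This second form matched Syn1 and 0.0517% of all windows, so the Syn1 match was obtained by adjusting the letters to that window. Such matches describe the sequence and show no binding.

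Shown here are the windows of Syp, Nsf and Syn1, which rose in both types and hold a motif. Also shown are those of Lin7b and Rab3c, which were among the genes called between CSMN and CPN and hold none of the letters searched. Capitals mark the motif: the GC box in Syp (chrX:7638330-7638579, plus strand), the E-box in Nsf (chr11:103954057-103954306, minus strand), and in Syn1 (chrX:20920919-20921168, minus strand) the second form of the RE1 letters and the cAMP response element. Lin7b lies at chr7:45370565-45370814 and Rab3c at chr13:110280207-110280456, both on the minus strand. Each is written 5′ to 3′ on its gene's strand.
Syp: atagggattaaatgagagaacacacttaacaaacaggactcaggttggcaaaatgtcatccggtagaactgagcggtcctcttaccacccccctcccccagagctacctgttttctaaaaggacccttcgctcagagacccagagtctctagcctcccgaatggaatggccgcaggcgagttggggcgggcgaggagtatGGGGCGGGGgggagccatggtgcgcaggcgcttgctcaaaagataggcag
Nsf: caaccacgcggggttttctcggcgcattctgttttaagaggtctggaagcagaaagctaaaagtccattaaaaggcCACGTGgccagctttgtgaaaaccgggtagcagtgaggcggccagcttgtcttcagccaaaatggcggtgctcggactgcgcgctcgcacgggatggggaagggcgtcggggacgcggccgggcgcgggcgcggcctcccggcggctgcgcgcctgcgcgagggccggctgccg
Syn1: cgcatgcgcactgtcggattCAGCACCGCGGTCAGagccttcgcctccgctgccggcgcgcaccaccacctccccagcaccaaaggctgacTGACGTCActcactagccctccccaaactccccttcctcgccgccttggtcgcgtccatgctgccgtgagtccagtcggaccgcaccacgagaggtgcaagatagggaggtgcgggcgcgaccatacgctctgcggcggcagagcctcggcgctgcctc
Lin7b: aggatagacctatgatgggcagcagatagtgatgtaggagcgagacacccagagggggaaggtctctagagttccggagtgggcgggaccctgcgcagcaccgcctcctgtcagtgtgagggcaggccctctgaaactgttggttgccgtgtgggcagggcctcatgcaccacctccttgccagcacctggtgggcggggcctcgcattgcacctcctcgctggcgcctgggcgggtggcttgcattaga
Rab3c: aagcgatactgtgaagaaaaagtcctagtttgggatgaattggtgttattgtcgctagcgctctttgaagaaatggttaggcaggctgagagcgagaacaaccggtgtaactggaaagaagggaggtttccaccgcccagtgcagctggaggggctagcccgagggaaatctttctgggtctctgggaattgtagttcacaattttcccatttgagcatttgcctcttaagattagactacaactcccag

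Among the SNAREs and their recycling proteins, 6 of 6 rose in both types. Nsf, the ATPase that separates spent SNARE complexes, stood at 9.18 and 9.15 in CPN at E18 and at 12.70 and 12.57 at P14, and in CSMN at 9.24 and 9.27 and then at 12.88 and 12.24. All P14 values lay far above all E18 values, and the types rose by like amounts, 3.47 ± 0.26 in CPN (adjusted p = 3.38e-07) and 3.31 ± 0.26 in CSMN (adjusted p = 1.37e-06). Napb, the neuronal SNAP adaptor of NSF, rose by 2.38 ± 0.25 and 1.83 ± 0.25. Vamp2, the main synaptobrevin of forebrain vesicles, rose by 2.33 ± 0.29 in CPN and 2.62 ± 0.29 in CSMN. Its relative Vamp1 rose by 1.25 ± 0.22 and 1.98 ± 0.22, though the second brightest Vamp1 probe set gave 0.03 and 0.09. The plasma membrane SNARE Stx1a rose by 2.05 ± 0.28 and 0.96 ± 0.28, and Snap25 by 3.70 ± 0.29 and 1.99 ± 0.29. The CSMN call of Stx1a ended without array 2 at E18 (0.79) or array 1 at P14 (0.90).

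The calcium sensors were the most mixed group, with 5 of 9 called higher in CPN and 4 of 9 in CSMN. Syt1, the fast sensor of synchronous release, rose by 2.30 ± 0.28 and 1.67 ± 0.28. The largest rise was that of Syt13, a synaptotagmin that lacks the calcium-binding residues: it read 6.65 and 6.64 in CPN at E18 and 10.89 and 10.64 at P14, and in CSMN 6.40 and 6.07 and then 10.30 and 9.21. The E18 values lay near the array medians in both types, and the difference was 4.12 ± 0.32 in CPN and 3.52 ± 0.32 in CSMN. Syt3 rose by 1.27 ± 0.39 in CPN (adjusted p = 0.032) and 1.29 ± 0.39 in CSMN (adjusted p = 0.0378). The CPN call ended without any 1 of the 4 CPN arrays compared, and the CSMN call in 7 of the 19 fits that left out 1 array, with 0.65 without array 2 of CSMN at E18 and 0.83 without array 1 at P14. Syt5, a vesicle synaptotagmin, and Doc2b, a high-affinity calcium sensor linked to spontaneous release, were called in CPN alone (1.54 ± 0.47 and 1.48 ± 0.42), and leaving out any 1 of the 4 CPN arrays compared ended either call. Syt11, which does not bind calcium, was called in CSMN alone (1.68 ± 0.22, adjusted p = 0.000142; CPN 0.34 ± 0.22, adjusted p = 0.367).

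Of the complexins, small proteins that clamp and promote SNARE-driven fusion, Cplx1 rose by 1.54 ± 0.33 in CPN and 1.45 ± 0.33 in CSMN. Its calls ended without array 2 of CPN at E18 (1.05) and without array 2 of CSMN at E18 (1.06). Cplx2 did not pass in either type, at 1.10 ± 0.42 (adjusted p = 0.0861) and 0.79 ± 0.42 (adjusted p = 0.23).

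Proteins of the vesicle membrane were called higher for 6 of 7 genes in CPN and 4 of 7 in CSMN. Syp, which encodes synaptophysin, an abundant vesicle membrane protein, read 6.70 and 7.77 in CPN at E18 and 11.25 and 10.98 at P14, and in CSMN 7.88 and 7.93 and then 11.66 and 10.95. Neither type's groups overlapped, and the rises were 3.88 ± 0.37 and 3.40 ± 0.37. A second Syp probe set, whose name carries the platform's mark for possible cross-hybridization, gave 1.02 in CPN and -1.07 in CSMN. Sv2b, a vesicle glycoprotein that supports priming, read 8.21 and 7.94 and then 11.45 and 11.41 in CPN, and 8.01 and 8.11 and then 11.97 and 11.55 in CSMN. The E18 values were alike in both types, and the rise was 3.35 ± 0.22 in CPN and 3.70 ± 0.22 in CSMN (adjusted p = 9.04e-08 and 8.55e-08). Its paralog Sv2a rose by 1.33 ± 0.20 and 1.17 ± 0.20, and Sv2c stayed below the array medians on every array, with differences of -0.05 ± 0.20 and -0.13 ± 0.20. Syngr1, a synaptogyrin, rose by 2.08 ± 0.23 and 1.57 ± 0.23, but the next probe set of the gene gave -0.13 in CPN and 0.37 in CSMN. Synpr, which encodes synaptoporin, rose in CPN by 3.38 ± 0.63, while in CSMN its P14 arrays read 10.31 and 7.20 around E18 values of 7.64 and 7.42, and the difference of 1.22 ± 0.63 did not pass (adjusted p = 0.216).

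On the vesicle surface 6 of 6 genes rose in CPN and 4 of 6 in CSMN. Syn1 and Syn2, the synapsins that tether vesicles in the reserve pool, rose by 2.95 ± 0.46 and 2.57 ± 0.30 in CPN and by 1.74 ± 0.46 and 2.83 ± 0.30 in CSMN; the CSMN call of Syn1 ended without array 2 at E18 (1.15) or array 1 at P14 (1.26). Rph3a, an effector of RAB3, rose by 2.49 ± 0.42 and 2.42 ± 0.42, and Sncb, which encodes beta-synuclein, by 1.46 ± 0.24 and 1.36 ± 0.24. The small GTPases Rab3a and Rab3c, which bring vesicles to the active zone, were called in CPN alone, by 0.83 ± 0.21 and 0.92 ± 0.31. The Rab3a call ended without array 1 of CPN at E18 (0.70) or either CPN array at P14 (0.85 and 0.81). The Rab3c call was borderline (adjusted p = 0.0495) and ended in 15 of the 19 fits that left out 1 array, with values from 0.54, without array 1 of CPN at E18, to 1.30.

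Active zone and priming genes rose for 6 of 6 in CPN and 4 of 6 in CSMN. Lin7b, a small scaffold protein that joins the CASK and MINT adaptors and, in this list, stands with the release site proteins, had the largest rise of all 40 genes. It read 6.68 and 6.63 in CPN at E18 and 12.17 and 12.14 at P14, and in CSMN 7.44 and 7.74 and then 11.30 and 11.37. Replicates lay close together at both ends, and the differences were 5.50 ± 0.19 (adjusted p = 1.72e-10) and 3.75 ± 0.19 (adjusted p = 2.22e-08). A second Lin7b probe set gave 5.93 and 4.26, and the other two gave 2.20 and 2.07 in CPN and 0.94 and 0.97 in CSMN. Bsn, which encodes the scaffold bassoon, rose by 2.30 ± 0.25 and 1.30 ± 0.25, and Pclo, for its partner piccolo, was called in CPN (1.81 ± 0.29) and not in CSMN (0.78 ± 0.29, adjusted p = 0.0821). Rims1, the RIM that recruits calcium channels, rose by 2.04 ± 0.25 in CPN and 0.88 ± 0.25 in CSMN, the latter lost without either E18 array of CSMN (0.83 and 0.92) or array 1 at P14 (0.46). Unc13a, the priming factor Munc13-1, rose by 1.60 ± 0.21 and 0.75 ± 0.21, the CSMN call ending without array 1 at E18 (0.66) or array 1 at P14 (0.58). Rims2, a second RIM, passed in CPN (1.46 ± 0.39, lost without array 2 at E18 at 1.19 or either P14 array at 1.42 and 1.50) and just missed in CSMN (1.16 ± 0.39, adjusted p = 0.0571).

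In the endocytosis group 3 of 4 genes rose in both types. Dnm1, the neuronal dynamin that cuts vesicles free, read 9.50 and 7.80 in CPN at E18 and 13.08 and 13.28 at P14, and in CSMN 9.72 and 8.77 and then 13.27 and 12.17. The E18 replicates were far apart in both types, yet no E18 array reached a P14 array, and the rises were 4.53 ± 0.50 and 3.47 ± 0.50. Amph, which encodes the membrane-bending amphiphysin, rose by 2.17 ± 0.30 in CPN and 1.10 ± 0.30 in CSMN, and Synj1, the lipid phosphatase that strips clathrin coats, by 1.55 ± 0.21 and 1.01 ± 0.21. The CSMN call of Amph ended without either E18 array of CSMN (1.12 and 1.08) or array 1 at P14 (0.78). Dnm3 passed in neither type, at 0.59 ± 0.33 and -0.53 ± 0.33.

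The remaining members that passed in neither type were Syt2, Syt4 and Syt7. Syt4, a synaptotagmin of dense-core vesicles, read 11.19 and 9.29 in CPN at E18 and 10.12 and 10.02 at P14, and 11.40 and 11.40 and then 11.13 and 10.56 in CSMN. The 2 E18 arrays of CPN lay on either side of the P14 arrays, and the differences were -0.17 ± 0.48 and -0.56 ± 0.48. Syt7, the slow, high-affinity sensor, differed by 1.13 ± 0.46 in CPN (adjusted p = 0.111) and 0.30 ± 0.46 in CSMN. Syt2, the fast sensor of hindbrain and spinal synapses, lay below or near the array medians and differed by 0.32 ± 0.26 and 0.27 ± 0.26.

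**Figure D2:**
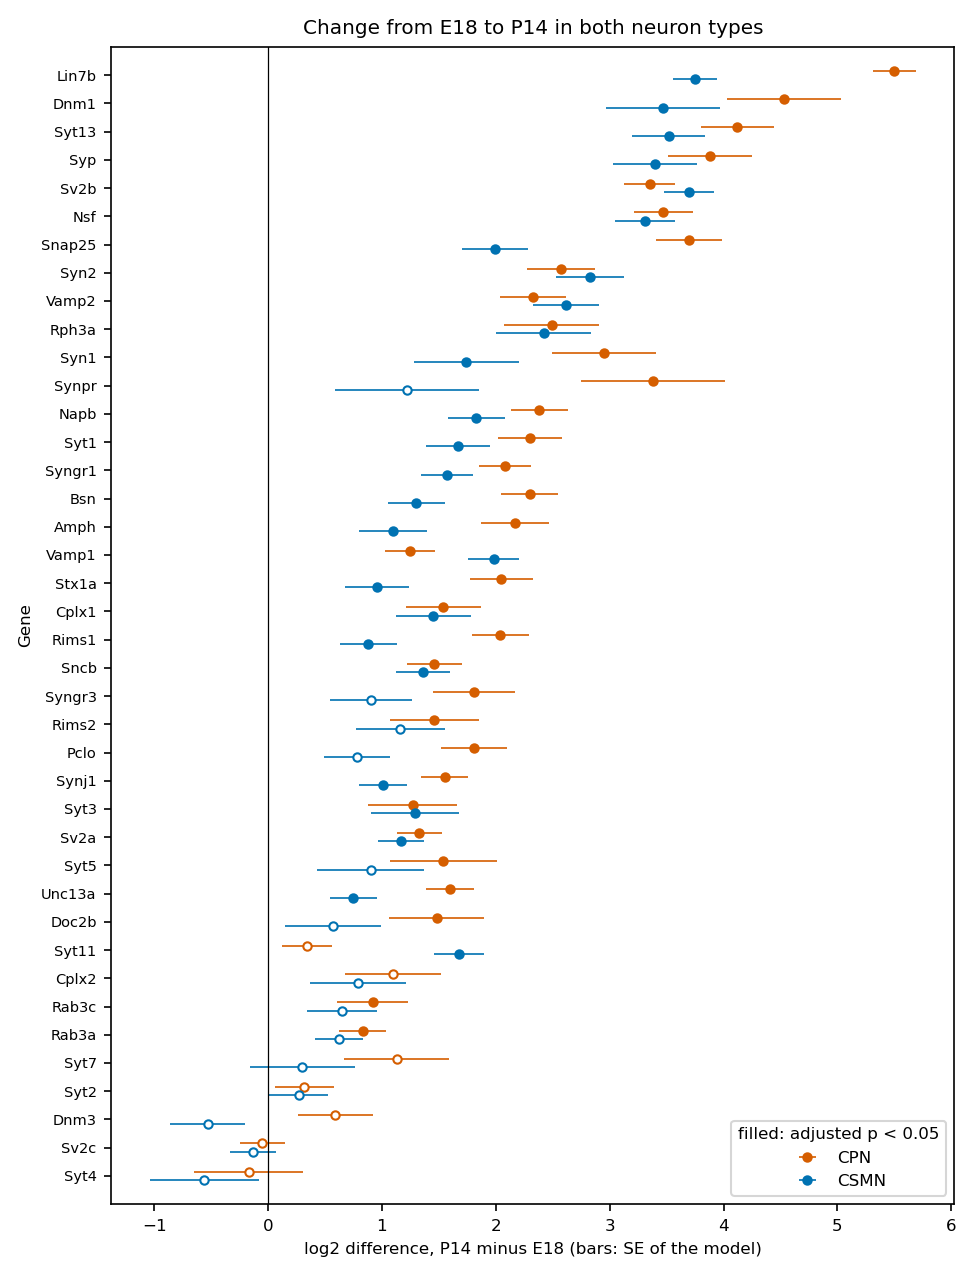
For each release gene, the difference P14 minus E18 in log2 units is drawn for CPN (orange) and CSMN (blue), with bars for the SE of the model and filled points for an adjusted p under 0.05. The points run from 5.50 for Lin7b in CPN to -0.56 for Syt4 in CSMN, and the orange point lies to the right of the blue one for 34 of the 40 genes (85.0%; 52.4% of all genes, and 60.0% against 54.1% from P3 on).

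The next question was whether the rise differed between the neuron types. The difference was larger in CPN for 34 of 40 members (85.0%), where 52.4% of all genes were, with a median of -0.52 for CSMN minus CPN against -0.03 over all genes. From P3 on, without the E18 arrays of CPN with high progenitor and astrocyte markers, it was larger in CPN for 24 members (60.0%) and for 54.1% of all genes, with medians of -0.08 and -0.05. Across the 40 genes the E18 to P14 differences of the types followed each other (Pearson r = 0.846, Spearman rho = 0.793, a description over genes that share arrays, with CPN and CSMN on separate arrays). The difference itself passed for 3 members: 1 was higher in CSMN, against 3.53% of all genes, and 2 were lower, against 1.65%. Snap25 read 8.74 and 9.09 in CPN at E18 and 12.66 and 12.57 at P14, and 10.88 and 10.47 and then 12.87 and 12.46 in CSMN. The types were apart at E18 and overlapped at P14, and the CSMN rise was smaller by 1.71 (-1.71 ± 0.41, adjusted p = 0.0257). This call ended without array 1 of CPN at E18 (-1.53), either CPN array at P14 (-1.66 and -1.75) or array 1 of CSMN at E18 (-1.50), and from P3 onward the difference was -0.88 ± 0.39 (adjusted p = 0.541).

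Syt11 went the other way. It read 11.61 and 11.08 in CPN at E18, 10.60 and 10.62 at P3, and 11.65 and 11.72 at P14, and in CSMN 10.57 and 10.31 at E18, 11.24, 11.06 and 11.05 at P3, and 12.41 and 11.83 at P14. In CSMN every P3 array lay above both E18 arrays, while CPN was lower at P3 than at E18 on every array. The rise was larger in CSMN by 1.34 ± 0.31 (adjusted p = 0.0219). It was not called without array 1 of CPN at E18 (1.08), either CPN array at P14 (1.30 and 1.38) or array 2 of CSMN at E18 (1.21), and with P3 in place of E18 the difference was -0.07. The E18 arrays of CPN on which this rests are those with the high progenitor and astrocyte markers, whose part was not tested.

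For Lin7b the rise was smaller in CSMN by 1.75 (-1.75 ± 0.27, adjusted p = 0.0011), and leaving out any 1 array left it called, between -1.90 and -1.60. With array weights, and in a fit of only the groups compared, this E18 to P14 call of Lin7b was lost. With P3 in place of E18, the P14 against P3 difference was smaller in CSMN by 2.36 (-2.36 ± 0.25, adjusted p = 0.00156), a call made for 0.0989% of all genes in that direction. No E18 mean enters this difference, though the E18 arrays still entered the model's estimate of spread. The number of members called in this comparison was 1 without either CPN array at P14 and 13 without array 1 of CSMN at P14 (19.8% of all genes), where array 2 is the only one of its group. Without array 2 it was 4 (9.71%), with Vamp1 added to the 3 genes above.

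To place the rise in time, the mean of both types was compared from stage to stage. From E18 to P3, 27 of 40 genes rose (9.16% of all genes), with a median difference of 0.92 over the members and -0.05 over all genes. From P3 to P6, 1 gene rose, Sv2b by 0.95 (adjusted p = 0.0225; 0.0605% of all genes), a call that 10 of the 19 fits leaving out 1 array lost. The median difference of this middle step was 0.26 over the members and -0.02 over all genes. Every P6 array lay above every P3 array for 16 members in CPN (13.9% of all genes) and 24 in CSMN (12.9%). Every P6 array lay below for 1 in CPN (21.6%) and 0 in CSMN (12.9%). From P6 to P14, 15 genes rose (5.51% of all genes) and 3 fell (7.36%), with a median of 0.47. The steps span unequal numbers of days, so the counts are not rates. In CPN alone, 24 genes rose from E18 to P3 (3.86% of all genes) and 12 from P6 to P14 (3.52%), and in CSMN alone 13 (7.93%) and 7 (1.75%).

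Among the 25 genes that rose in both types, 12 had passed 50% of their mean rise by P3, 7 more by P6, and 6 only after P6. The median share reached was 48.2% at P3 and 64.0% at P6. In CPN the corresponding numbers were 14, 7 and 4 genes, and in CSMN 10, 10 and 5. The active zone and endocytosis genes were all among those that rose from E18 to P3, 6 of 6 and 4 of 4, with 5 of 6 SNARE genes, 6 of 7 vesicle membrane genes, 3 of 9 calcium sensors, 2 of 6 vesicle surface genes and 1 of 2 complexins. From P6 to P14, 4 of 6 SNARE genes, 3 of 6 vesicle surface genes, 3 of 9 calcium sensors, 2 of 6 active zone genes, 2 of 7 vesicle membrane genes and 1 of 4 endocytosis genes rose. These counts were not tested against each other. With CSMN alone the first step held 13 genes in place of 27, among them 4 of 6 active zone genes and 0 of 4 endocytosis genes. With CPN alone it held 5 of 6 and 4 of 4 of these. For the first step, Dnm1, Syt13, Syngr1 and Syp gave -0.27, -0.14, -0.51 and 0.08 with their second brightest probe sets.

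A direct test of order set the first step against the last: the P3 minus E18 difference minus the P14 minus P6 difference, as the mean of both types. In all, 13 of 40 genes were higher (12.7% of all genes), which marks an early rise or a late fall, and 6 were lower (6.62%), which marks a late rise or an early fall. The median was 0.52 over the members and -0.13 over all genes.

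At the early end stood Doc2b, whose value was 2.60 ± 0.41 (adjusted p = 0.000695). It read 6.76 and 6.58 in CPN at E18, 9.28 and 8.75 at P3, 9.36 and 8.99 at P6, then 8.11 and 8.18 at P14, and in CSMN 9.31 and 9.22, then 9.96, 10.55 and 9.74, then 10.77 and 10.92, and at P14 10.65 and 9.03. In CPN both P14 arrays lay below both P6 arrays, in CSMN likewise, and the mean fell from P6 to P14 by 1.02 (-1.02 ± 0.29, adjusted p = 0.0334). The fall was -0.61 and not called without array 2 of CSMN at P14, and the second brightest probe set gave -0.01 for it and 0.24 for the order. Syt4 stood next (1.89 ± 0.47): it read 11.64 and 11.36 in CPN at P3, 11.15 and 11.41 at P6, then 10.12 and 10.02 at P14, and 11.84, 11.92 and 11.50, then 11.73 and 11.88, then 11.13 and 10.56 in CSMN. Its P14 arrays were below its P6 arrays in both types, and the fall of 1.09 (-1.09 ± 0.34, adjusted p = 0.0489) was borderline, since 14 of the 19 fits without 1 array lost it.

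Dnm3, a dynamin found on both sides of the synapse, had an order value of 1.74 ± 0.33 (adjusted p = 0.00222). In CPN it read 10.10 and 9.24 at E18, 10.96 and 11.18 at P3, 11.22 and 10.86 at P6, then 10.29 and 10.23 at P14, and in CSMN 10.26 and 10.09, then 10.08, 10.67 and 10.31, then 10.79 and 10.75, then 10.18 and 9.11. It rose by 0.79 ± 0.23 in the first step and fell by 0.95 in the last (-0.95 ± 0.24, adjusted p = 0.0147); the fall was -0.68 without array 2 of CSMN at P14, and the call ended without array 1 of CPN at P6, array 2 of CPN at P14 or either CSMN array at P6 (-0.96 to -0.86). Sv2b was early without a fall (1.68 ± 0.21, adjusted p = 0.000155): it read 9.93 and 10.01 at P3 and 11.21 and 10.81 at P6 in CPN, and 10.36, 10.54 and 10.37, then 11.10 and 11.44 in CSMN. By P6 it had reached 87.2% of its mean rise. The other 9 genes called higher were Rims2 (1.24), Syngr3 (1.18), Snap25 (1.08), Unc13a (1.06), Amph (0.98), Stx1a (0.95), Syt1 (0.92), Rims1 (0.75) and Lin7b (0.66). Lin7b was not early in both types: in CPN its last step was larger than its first (2.71 against 2.04). By P6 it had made 63.4% of its mean rise.

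At the lower end stood Vamp1 (-1.19 ± 0.22, adjusted p = 0.00204). In CPN it read 6.84 and 7.02 at E18, 6.68 and 6.88 at P3, 7.05 and 6.85 at P6, then 8.33 and 8.03 at P14, and in CSMN 6.88 and 6.63, then 7.04, 7.13 and 6.97, then 7.40 and 7.48, then 9.11 and 8.36. It was near the array medians through P6 in CPN and had made 22.0% of its mean rise by then. The second brightest Vamp1 probe set, as given above, hardly differed between E18 and P14 in either type. Syt13 was also late (-1.06 ± 0.32, adjusted p = 0.0311), at 7.89 and 7.94 at P3 and 8.84 and 9.18 at P6 in CPN, and 6.96, 6.79 and 7.54, then 7.27 and 7.26 in CSMN. Its P14 arrays lay above every earlier array of the same type.

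Syt2 (-0.89 ± 0.25) read 5.86 and 5.79, 5.77 and 5.75, 5.79 and 5.66, and 6.34 and 5.96 over the 4 stages in CPN, and 6.55 and 6.36, then 6.08, 6.12 and 5.80, then 5.84 and 5.91, then 7.10 and 6.34 in CSMN. All of these but 1 array lay below the highest array median, so the size of its change is uncertain. Sncb (-0.79 ± 0.23) read 9.32 and 9.37, 9.71 and 9.74, 9.89 and 9.63, and 10.88 and 10.72 in CPN, and 9.73 and 9.48, then 9.78, 9.63 and 9.64, then 9.96 and 9.97, then 11.41 and 10.52 in CSMN. It was nearly level through P6, when 27.7% of its rise was made. Leaving out 1 array ended the call of Syt13 in 10 of the 19 fits, that of Syt2 in 3 and that of Sncb in 9. The last step of Syt11 was a rise (0.61 ± 0.16, adjusted p = 0.017), and its order value was -0.65. Sv2c, below the array medians throughout, had an order value of -0.63 in which neither step passed (first -0.35 ± 0.13, last 0.28 ± 0.14), so no rise was shown for it.

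The number of members called in this test fell to between 7 and 12 without any 1 of 9 arrays (array 2 of CPN at E18, both CPN arrays at P3, array 1 of CPN at P6, both CPN arrays at P14, array 2 of CSMN at P3 and both CSMN arrays at P6). Snap25, Vamp1, Syt4, Doc2b, Sv2b, Unc13a and Dnm3 were called in all 19 of those fits. With CSMN alone 12 members were called, where 21.1% of all genes were, and with CPN alone 7, against 8.11%. Of the genes just named, Vamp1, Doc2b, Sv2b and Unc13a were called with each type alone. Syt4 and Dnm3 were called with CPN alone but not with CSMN alone, and Snap25 with neither.

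**Figure D3:**
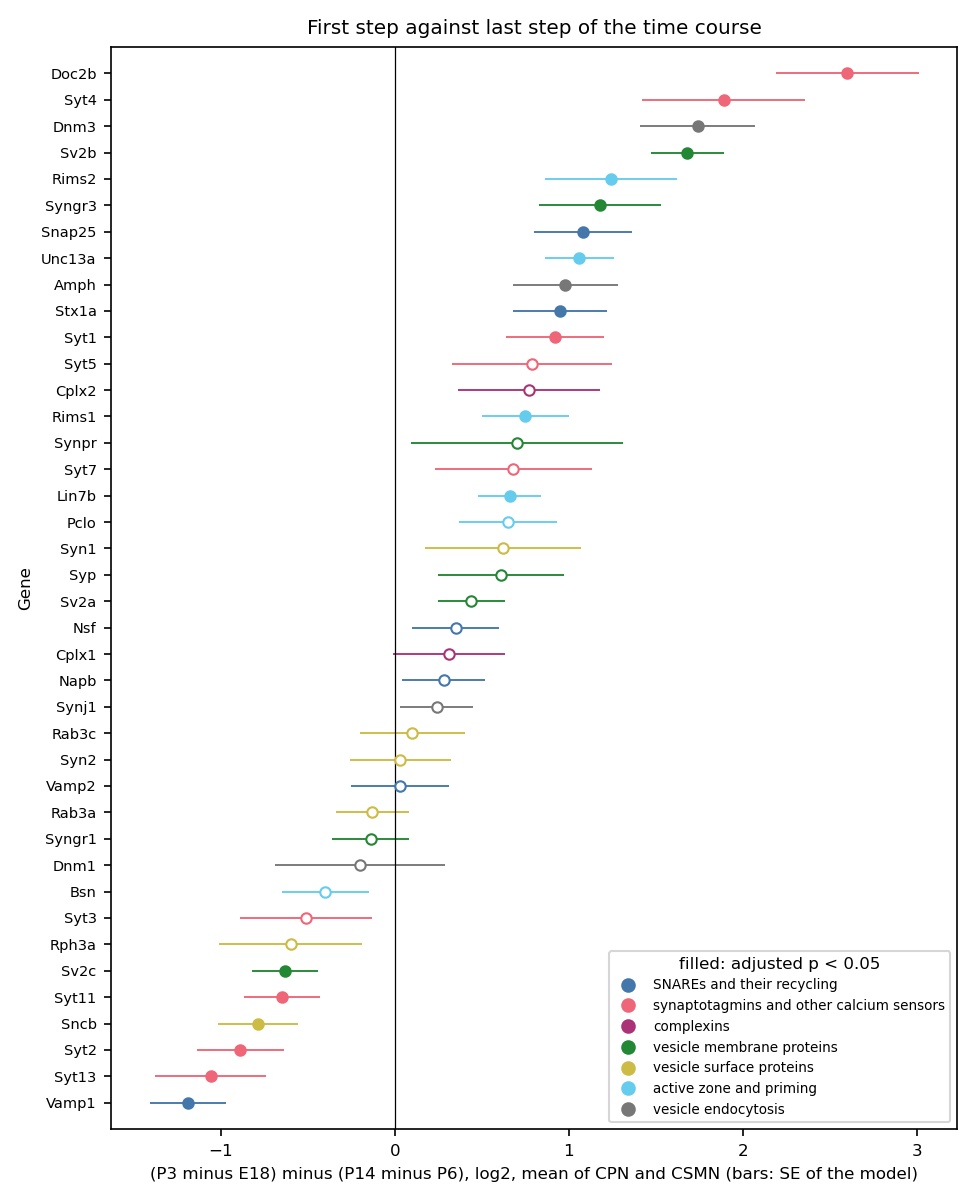
For each release gene, the first step (P3 minus E18) minus the last step (P14 minus P6) in log2 units, as the mean of CPN and CSMN, is drawn with the SE of the model; colours give the role and filled points an adjusted p under 0.05. Values run from 2.60 for Doc2b to -1.19 for Vamp1, with 13 filled points to the right of 0 and 6 to the left.

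Lin7b followed a different course in each type. In CPN it read 8.61 and 8.80 at P3, 9.45 and 9.44 at P6, then 12.17 and 12.14 at P14, so that 50.7% of its rise had been made by P6. In CSMN it read 10.32, 10.20 and 10.22 at P3 and 10.90 and 10.43 at P6, by when 82.0% had been made. The first step was 2.04 ± 0.19 in CPN and 2.66 ± 0.17 in CSMN, and the last step was 2.71 ± 0.19 and 0.68 ± 0.19. First minus last step was -0.67 ± 0.27 in CPN (adjusted p = 0.159) and 1.98 ± 0.25 in CSMN (adjusted p = 0.000797), and the difference between the types was 2.65 ± 0.37 (adjusted p = 0.00152), a call made for 2.76% of all genes in that direction. Between P6 and P14 alone, the type difference changed by -2.04 ± 0.27 (adjusted p = 0.0163; 0.033% of all genes were called lower).

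Whether the neuron types differed in level was asked over the 4 stages together. In CSMN 6 of 40 members were higher (2.96% of all genes) and 1 was lower (5.34%), with a median difference of 0.14 over the members and 0.06 over all genes. Without the E18 means, over P3, P6 and P14, 5 were higher (2.08%) and 1 lower (2.02%), and Napb was the gene no longer called (0.42). Without array 2 of CSMN at P14, 10 were higher (6.01% of all genes) and 1 lower (5.66%), and without array 1, 8 were higher (15.1%) and 3 lower (13.8%).

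The largest difference was in Doc2b, whose values are given above: it was higher in CSMN by 1.76 ± 0.20 (adjusted p = 6.3e-05). At each of the first 3 stages every CSMN array lay above every CPN array, and so it was at P14, where 9.03 was the lowest CSMN value and 8.18 the highest CPN value. The second Doc2b probe set gave 0.57. Rab3c read 9.20 and 9.96 in CPN at E18, 10.53 and 10.31 at P3, 10.27 and 10.14 at P6, then 10.49 and 10.51 at P14, and in CSMN 11.33 and 11.39, then 10.95, 11.67 and 11.67, then 11.63 and 11.54, then 12.38 and 11.64. Every CSMN array, at any stage, lay above every CPN array, and the difference was 1.42 ± 0.15 (adjusted p = 3.18e-05). The next 2 Rab3c probe sets in brightness gave 1.62 and 1.72, and the 2 dimmest gave 0.21 and 0.09.

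Snap25 was higher in CSMN by 0.90 ± 0.14 (adjusted p = 0.000778). Its P3 arrays read 10.89 and 11.02 in CPN and 11.93, 12.02 and 11.72 in CSMN, and at P6 12.22 and 11.10 against 12.52 and 12.55. The groups were apart through P6 and overlapped at P14. Cplx1 was higher by 0.75 ± 0.16 (adjusted p = 0.00831): it read 11.71 and 10.73, 11.87 and 12.10, 12.34 and 11.64, and 12.72 and 12.79 in CPN, and 12.25 and 11.48, then 12.83, 12.86 and 12.41, then 13.18 and 13.02, then 13.40 and 13.22 in CSMN. Its groups overlapped at E18 and were apart from P3 on.

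Lin7b was higher in CSMN by 0.72 ± 0.09 over the 4 stages, a mean of 3 stages with CSMN above CPN and 1 with CSMN below. Napb was higher by 0.54 ± 0.12 (adjusted p = 0.0112). In the other direction, Syt13 was lower in CSMN (-1.0 ± 0.16, adjusted p = 0.000864), and its second probe set gave -0.52, not called.

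**Figure D4:**
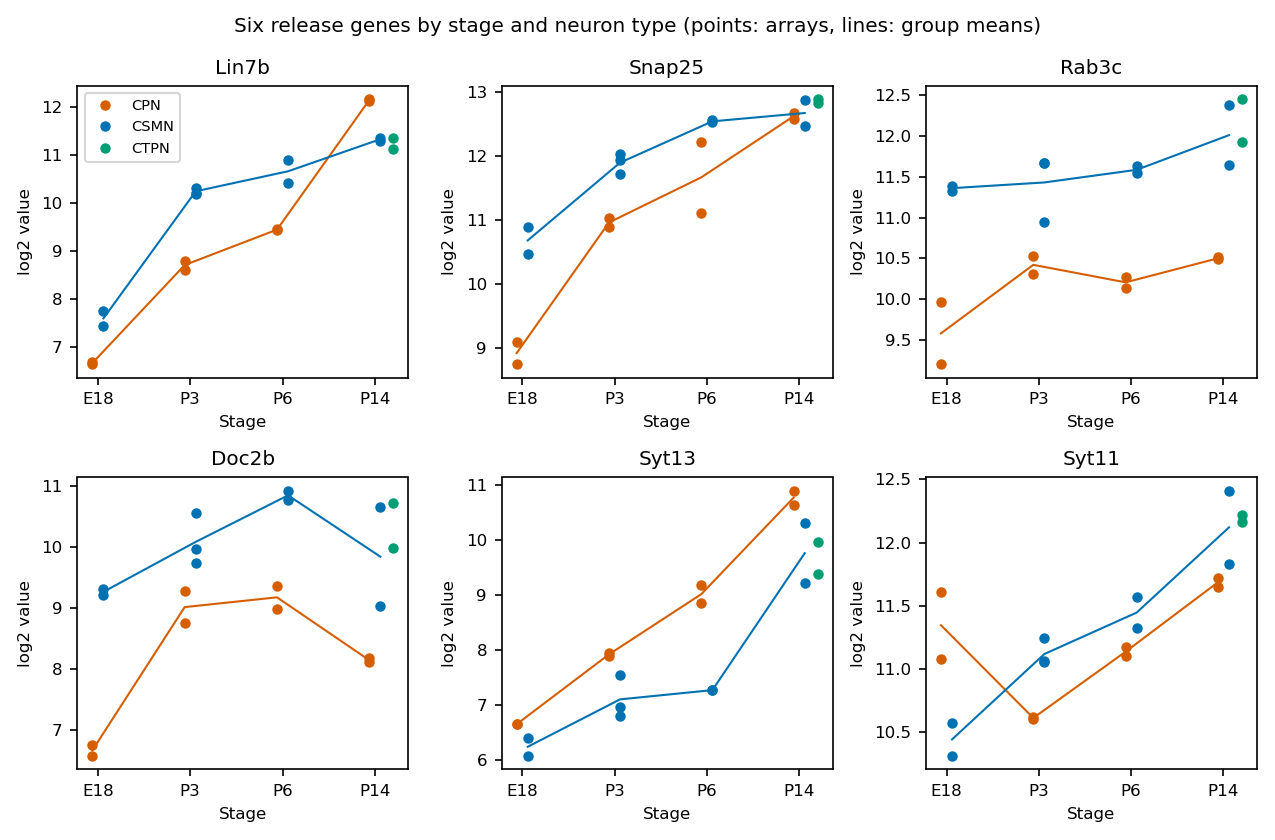
Log2 values of Lin7b, Snap25, Rab3c, Doc2b, Syt13 and Syt11 by stage, 1 point for each array, with lines through the group means of CPN (orange) and CSMN (blue) and CTPN (green) at P14. The Lin7b lines cross between P6 and P14, and every blue Rab3c point lies above every orange one.

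At E18 alone, 5 members were higher in CSMN (3.98% of all genes) and 1 lower (8.94%), and each of them rests on the CPN arrays with the high progenitor markers. Doc2b was higher by 2.60 ± 0.42, Rab3c by 1.78 ± 0.31, Snap25 by 1.76 ± 0.29, Lin7b by 0.93 ± 0.19 and Napb by 0.89 ± 0.25, and Syt11 was lower by 0.90 (-0.90 ± 0.22, adjusted p = 0.015). Without array 2 of CPN or array 1 of CSMN at E18, Napb was not called (0.67 and 0.47), and without array 1 of CPN or array 2 of CSMN Syt11 was not (-0.64 and -0.77). Without either CSMN array at P14 the total was 10, with 9 higher (10.0% of all genes) and 1 lower (13.4%). Quantile normalization gave 18 higher (7.36%) and 1 lower, cyclic loess 17 (4.69%) and 1, and array weights and the fit of only these groups 3 higher each (0.693% and 0.456%) and 0 lower. At P3, Lin7b alone passed, higher in CSMN by 1.54 ± 0.17 (adjusted p = 0.000521; 0.5% of all genes).

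At P6, 2 members were higher in CSMN (0.671% of all genes), Rab3c by 1.39 ± 0.31 (adjusted p = 0.0451) and Lin7b by 1.22 ± 0.19 (adjusted p = 0.00378), and Syt13 was lower by 1.75 (-1.75 ± 0.32, adjusted p = 0.0138; 0.401% of all genes). The Syt13 values at P6, near 9 in CPN and 7.27 and 7.26 in CSMN, did not overlap. Rab3c lost its call in 12 of the 19 fits without 1 array, Syt13 without any of the 4 arrays compared, and Lin7b without array 1 of CSMN at P6 (0.98); the total was 0 without that array, 1 without array 2 of CPN or of CSMN at P6, and 5 without either CSMN array at P14 (2.11% of all genes).

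At P14, Rab3c was higher in CSMN by 1.51 ± 0.31 (adjusted p = 0.0253; 0.445% of all genes) and Lin7b was now lower by 0.82 (-0.82 ± 0.19, adjusted p = 0.0445; 0.945% of all genes). The Lin7b values of 12.17 and 12.14 in CPN and 11.30 and 11.37 in CSMN did not overlap, but the call was lost in 14 of the 19 fits without 1 array, where the difference ran from -0.85 to -0.79. Rab3c was lost without either CPN array at P14 (1.50 and 1.52). Without array 2 of CSMN at P14, Doc2b (2.51 ± 0.35), Rab3c (1.88 ± 0.33) and Vamp1 were called higher and no member lower; without array 1, 9 members were called (34.4% of all genes). Under quantile normalization and cyclic loess 2 members were higher and 0 lower, so the call of Lin7b was lost. The shares of all genes are not given for these fits, so the counts are not read further.

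Corticotectal neurons, which like CSMN project below the cortex, were set against both other types at P14. Against CSMN 0 of 40 members were called by limma, where 0.192% of all genes were; at an unadjusted p under 0.05 there were 4 members (Vamp1, Syt2, Rims2, Dnm3) and 1602 genes in all. Lin7b read 11.35 and 11.13 in CTPN and differed from CSMN by -0.10 ± 0.19, and Rab3c read 11.92 and 12.45 and differed by 0.18 ± 0.31. Without array 2 of CSMN, Synpr (-1.94 ± 0.29, adjusted p = 0.0136) and Vamp1 (-1.11 ± 0.20, adjusted p = 0.0372) were lower in CTPN, at 8.03 and 8.70 and at 8.03 and 7.96; without array 1, 7 members were called (28.3% of all genes).

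Against CPN, 3 members were higher in CTPN (0.456% of all genes) and 1 was lower (0.605%). Doc2b read 10.72 and 9.98 in CTPN and was higher by 2.21 ± 0.42 (adjusted p = 0.0164), and its second probe set gave 0.31. Rab3c was higher by 1.69 ± 0.31 (adjusted p = 0.0144) and Syt2, at 7.15 and 7.77, by 1.31 ± 0.26 (adjusted p = 0.0216). Lin7b was lower by 0.92 (-0.92 ± 0.19, adjusted p = 0.0272). For these 4 genes the CTPN arrays did not overlap the CPN arrays. The same held for 21.1% of all genes with CTPN higher and for 20.3% with CTPN lower. The comparison shares its CPN arrays with that of CSMN against CPN at P14, where the same genes gave 1.69 (Doc2b, adjusted p = 0.0645), 1.51 (Rab3c), 0.57 (Syt2, adjusted p = 0.337) and -0.82 (Lin7b). Both CPN values of Syt2 at P14, 6.34 and 5.96, lay below the lowest array median, so the size of its difference is uncertain. With either CPN array left out 0 members were called, with array 1 or 2 of CTPN left out 2 and 1, and without either CSMN array at P14, which changes the shared estimate of spread alone, 7 (2.17% of all genes).

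The other genes of the pathway were taken from 5 lists that hold no member, with 82 of 87 genes measured, and compared as P14 against E18 in the mean of both types. On that comparison 35 of the 40 members were higher (14.1% of all genes) and 0 lower (10.5%). Of 21 other endocytosis genes 14 rose and 1 fell, with Pacsin1, a membrane-bending partner of dynamin, up by 3.33 ± 0.32 and Sgip1, an endocytic adaptor, by 2.39 ± 0.27, and the scaffold Itsn1 down (-1.14 ± 0.21). Of 19 other SNAREs and their regulators 9 rose and 3 fell. Stxbp5l, a tomosyn that competes for SNAREs, rose by 2.51 ± 0.24 and Napg, the gamma form of the SNAP adaptor, by 2.08 ± 0.19. Stx2 (-1.16 ± 0.31) and Vamp3 (-0.91 ± 0.21), SNAREs used outside the synapse, fell.

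Among 17 other active zone and priming genes 7 rose and 1 fell. Lin7a, the paralog of Lin7b, rose by 2.77 ± 0.23 and Rimbp2, which links RIM to calcium channels, by 2.03 ± 0.20, and Ppfia1, a liprin, fell (-0.98 ± 0.24). Of 14 other vesicle genes 5 rose and 1 fell. Cadps2, a factor of dense-core vesicle release, rose by 3.53 ± 0.29 and Svop, a transporter-like vesicle protein, by 1.82 ± 0.27, while another synapsin, Syn3, fell (-1.15 ± 0.35). Of 11 other calcium sensors 3 rose and 0 fell, among them Syt17 (3.45 ± 0.21) and Doc2a (1.35 ± 0.19). The median difference was 0.90 for the endocytosis list, 0.33 for the active zone list, 0.22 for the vesicle list, -0.02 for the SNARE list and -0.06 for the calcium sensor list, against 1.48 for the members and -0.01 for all genes.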

How the data were processed

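RNA of sorted neurons was amplified by 2 rounds of in vitro transcription and hybridised to Affymetrix arrays, per the labels' protocols. The deposited values are log2 expression values made by the authors with RMA, per the submitters' processing notes, with version and settings not given in the sources used here. Amplification from the 3′ end can favour probe sets near that end. Probe sets were named through the platform annotation: of 45101, 34945 had 1 symbol, 932 several and 9160 none, and 64 controls were left out. The brightest probe set stood for each of 18193 genes. One limma model (version 3.58.1, R 4.3.3) with 9 group means was fitted to all 19 arrays, with 10 residual degrees of freedom, and p-values were adjusted over all genes by the Benjamini-Hochberg method. The script was tested on simulated data. Members and lists were chosen with earlier results of these data known. Every member could be named; values by array were given for the 6 largest rises in both types and for up to 4 genes in a direction in the comparisons of order and type. No depth applies to arrays; their number limits the precision.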

Additional observations from a re-analysis of the deposited data

Results flagged for a closer look

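A difference between the neuron types in the P14 against E18 change, tested as an interaction in limma, singled out 3 of the release genes. The rise of Snap25 was smaller in CSMN (-1.71 ± 0.41, adjusted p = 0.0257), that of Lin7b was smaller in CSMN (-1.75 ± 0.27, adjusted p = 0.0011), and that of Syt11 was larger in CSMN (1.34 ± 0.31, adjusted p = 0.0219). None of these calls was kept with array weights or in a fit of only the groups compared. Groups of 2 or 3 arrays are too small for a search for single outlying arrays.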

How the results depend on the processing

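Counts below are members called, and leaving out 1 array gave these ranges: CPN rise 27 to 34, CSMN rise 20 to 34, their difference 1 to 13, E18 to P3 18 to 31, P3 to P6 0 to 1, P6 to P14 13 to 20, first minus last step 7 to 23, CSMN against CPN over 4 stages 7 to 11, at E18 5 to 10, at P3 1 to 2, at P6 0 to 5 and at P14 0 to 9, CTPN against CSMN 0 to 7 and against CPN 0 to 7. Where an arm was left with 1 array, that array was assumed to vary like the other groups. The share of all genes called also moved between the fits of this section, as given above for some of them. The counts alone therefore do not show a change particular to the members. Array weights gave 8 for the CSMN rise, 0 for the difference in rise, 7 for P3 to P6, 3, 12, 8 and 0 for the types at E18, P3, P6 and P14, and 7 for CTPN against CPN. Fitting only the groups compared gave 8 for the CSMN rise, 0 for the difference in rise, and 3, 3, 0 and 0 for the types at the 4 stages. With P3 in place of E18 the counts were 19 in CPN, 16 in CSMN and 1 for the difference. Quantile normalization gave 10 for the difference in rise (2 higher, 8 lower), 11 over 4 stages and 19 at E18 (18 higher, 1 lower); cyclic loess gave 6 (1 higher, 5 lower), and 12 for first minus last step (7 higher, 5 lower) and 18 at E18 (17 higher, 1 lower). A change of at least 1 gave 0 for P3 to P6, 10 for first minus last step, 2 over 4 stages, 3 at E18 and 1 at P14. The mean of probe sets gave 2 for P3 to P6 and 2 at P3. The second brightest probe set gave 0 for P3 to P6, 2 at P3, 1 at P14 and 0 for CTPN against CPN. The brightness filter gave 1 at P14 and 2 for CTPN against CPN, and a mean-variance trend gave 1 at P14. CSMN alone and CPN alone, chosen after seeing the data, gave 13 for E18 to P3 (CSMN), 0 and 0 for P3 to P6, 7 for P6 to P14 (CSMN), and 12 and 7 for first minus last step. The fit with the replicate number as a block gave 0 for P3 to P6 and 1 at P14; it ended the calls of Sv2b from P3 to P6 (0.93, adjusted p = 0.0751) and of Lin7b between the types at P14 (-0.82, adjusted p = 0.0637). Same-numbered arrays correlated in their deviations by -0.222 to 0.593 over 36 pairs of groups (median 0.106, 19 over 0.1 and 2 under -0.1). The numbers were not taken as pairs, because the labels name no shared source and not every correlation was over 0.1. Signs turned for Doc2b in the CPN rise (-0.87) and Rims1 in the CSMN rise (-0.03) and Syt11 in the difference (-0.07) with P3 for E18; with the second brightest probe set for Syngr1 in the CPN rise (-0.13), Syp in the CSMN rise (-1.07), Syt13, Syngr1 and Dnm1 from E18 to P3 (-0.14, -0.51 and -0.27) and Syp from P6 to P14 (-0.15); with the mean of probe sets for Syngr1 from E18 to P3 (-0.06); and with CPN alone for first minus last step in Lin7b (-0.67). The cause of these changes was not tested.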
